A study of Homo sapiens with 6 samples.

Results

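Notch ligands, receptors, a fringe enzyme and target genes were followed in MDA-MB-436, an established triple-negative human breast tumour line, with and without a nuclear factor I-C construct. The set holds 10 genes of 19775 measured: the ligands JAG1, JAG2 and DLL1, the receptors NOTCH1, NOTCH2 and NOTCH3, the fringe enzyme LFNG, and the targets HES1, HEY1 and HEYL. They were chosen by name, with earlier results of these data known. All 28 probe sets whose platform annotation includes one of these symbols were used. Of these, 27 name 1 gene and 1 names NOTCH2 together with 4 NOTCH2NL genes.

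The study has 6 arrays: 3 of cells labelled NF1-C2S transfected and 3 of wild type cells. In the series record the construct is called NF1-C2, and the record describes stable transfection with an expression plasmid, while the condition label reads NF-C2. Both groups grew in RPMI-1640 with serum, PEST and insulin. The labels name no cells with an empty plasmid, and the sources used here give neither the plasmid's promoter nor whether the transfected cells are 1 clone or a pool. The labels do not state that replicates are separate cultures, and p-values then reflect only the spread between these arrays, which may be technical.

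Notch signalling passes between touching cells. A Jagged or Delta ligand on the sender binds a Notch receptor on the receiver, an ADAM protease and then gamma-secretase cut the receptor, and the freed intracellular part joins the DNA-binding protein RBPJ and a Mastermind coactivator to switch on genes such as those of the HES and HEY repressors. In the mammary gland the pathway is known for its part in luminal cell fate, and JAG1 is often high in basal-like breast cancer.

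NFIC, which encodes nuclear factor I-C, was not higher in the samples labelled transfected. Probe set 226895_at, the brightest, read 8.22, 8.23 and 8.30 in transfected arrays, against 8.40, 8.49 and 8.52 in wild type arrays, on the deposited log2 scale on which all levels are given (log2 change -0.22). This missed the threshold of an adjusted p under 0.05 over all probe sets (limma adjusted p = 0.0820) and passed as a fall over genes, each read by its brightest probe set (adjusted p = 0.0470). That fall was lost when the NFIC probe sets were averaged (0.334) or when names ending in _x_at or _s_at were dropped (0.0707). None of the 4 NFIC probe sets passed over probe sets. The others changed by -0.51 (213298_at, groups not overlapping, adjusted p = 0.0536), 0.22 (226377_at) and -0.11 (206929_s_at). The sources used here do not say whether 226895_at reads the stretch of NFIC on the plasmid. NFIC is therefore no check of the labels, and every direction below rests on them. Arrays correlated at 0.992 to 0.997 among transfected cells, at 0.996 among wild type cells and at 0.971 to 0.976 between the groups. Against the labelled epithelial cell type, KRT18 was high (11.62 in transfected and 12.55 in wild type arrays on average) but CDH1, which encodes E-cadherin, lay near the dim end in both (3.44 and 3.42). Further epithelial markers averaged 6.64 and 6.59 (KRT8), 4.96 and 5.71 (EPCAM) and 4.26 and 4.01 (KRT19) in transfected and wild type arrays.

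Markers of cell types and states moved with the groups as well. All 3 mesenchymal markers fell over genes, with log2 changes of -2.77 for FN1, which encodes fibronectin, -0.53 for the intermediate filament gene VIM and -0.41 for the repressor gene ZEB1 (limma adjusted p = 5.78e-06, 0.000644 and 0.0105). Of all genes, 16.9% fell and 15% rose. Counted by probe set, 5 of 7 fell for FN1, 1 of 2 for VIM and 2 of 4 for ZEB1. Without probe sets that can match more than 1 transcript (names ending in _x_at or _s_at), FN1 changed by 0.02 (limma adjusted p = 0.928). Summed log2 levels of the mesenchymal markers ran from 28.53 to 28.85 in transfected arrays and from 32.29 to 32.48 in wild type arrays. Of 5 epithelial markers KRT18 fell by 0.93 (adjusted p = 0.000136) and 4 did not pass, with sums from 30.72 to 31.29 in transfected arrays and from 31.82 to 32.58 in wild type arrays. Among these 4, EPCAM changed by -0.75 (limma adjusted p = 0.0602) with groups that did not overlap. On the brightest probe sets none of 5 endothelial markers passed, with sums from 22.53 to 22.73 and from 22.58 to 22.68, but 2 of 5 PECAM1 probe sets fell (averaging all of them gave -0.45, adjusted p = 0.00277) and 1 of 2 TEK probe sets rose. Among blood cell markers 1 of 3 measured rose (CD14, log2 change 0.83), and 1 of 5 fibroblast and smooth muscle markers fell (ACTA2, -1.07). Summed log2 levels ran from 14.52 to 15.41 in transfected and 13.52 to 14.36 in wild type arrays for the blood cell list, and from 22.74 to 23.68 and 23.53 to 24.80 for the fibroblast list. The defining markers PTPRC, CDH5 and LUM read at most 4.11 on any array. Other members of these lists read above 4.82, the median of all probe sets, on every array: PECAM1 (at least 5.24), TEK (at least 5.07), DES (at least 4.85), ACTA2 (at least 5.14) and CD14 (at least 5.6). The part of cell state or of other cells in the results below was not tested.

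All 3 ligands fell, and JAG1 fell most. Of the 28 probe sets, 12 fell, 2 rose and 14 did not pass the threshold of an adjusted p under 0.05. The background was high: 22.2% of all 54613 probe sets passed, 11.4% lower and 10.8% higher. The groups did not overlap on 16 of the 28, as was so for 34.9% of all probe sets. With each gene read by its brightest probe set, JAG1, JAG2, DLL1, NOTCH2 and HEY1 fell, NOTCH1 and LFNG rose, and NOTCH3, HES1 and HEYL did not pass, so that 7 of 10 genes passed where 31.9% of all genes did, 16.9% lower and 15% higher. The median log2 change (transfected minus wild type) was -0.28 over the 10 genes and 0.00 over all genes. The groups did not overlap for 7 of the 10 genes, as was so for 43% of all genes. The members were chosen with earlier results of these data known, so these counts are descriptions. In bulk RNA, fewer cells that express a gene and less of its RNA per cell cannot be told apart.

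**Figure D1:**
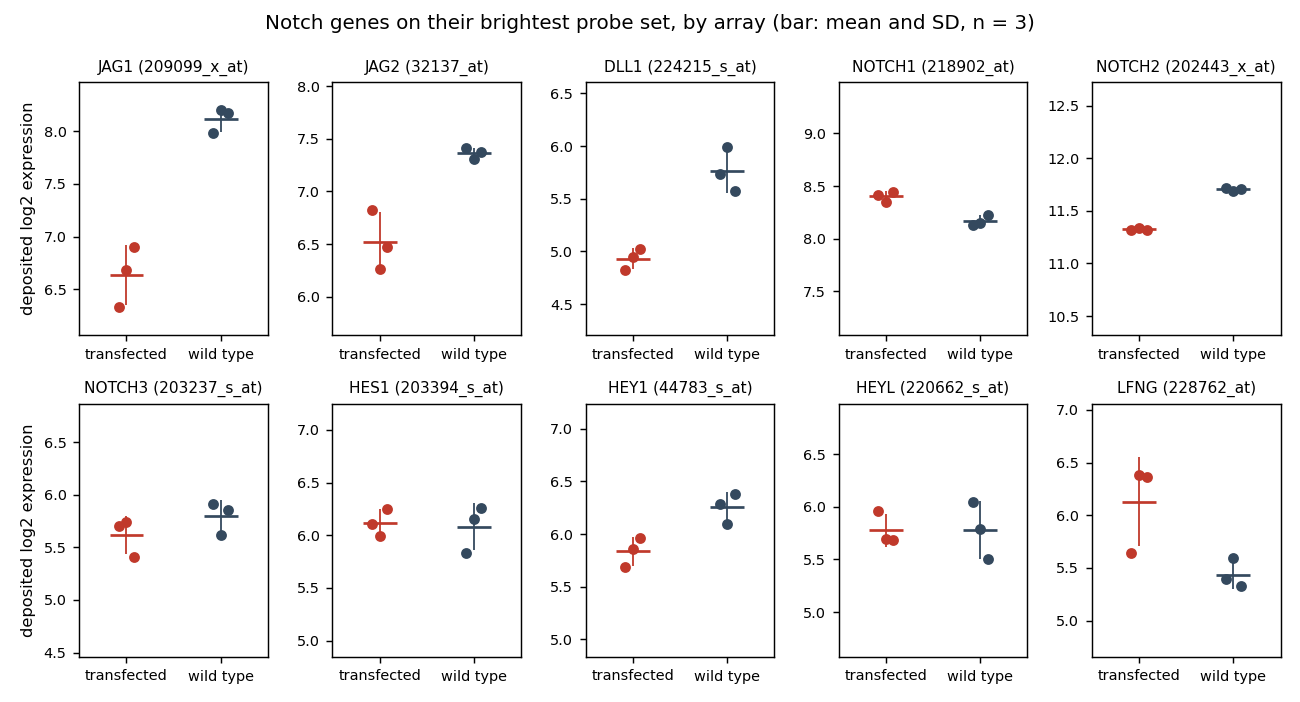
Deposited log2 expression of each of the 10 Notch genes on its brightest probe set, with transfected arrays (red) left of wild type arrays (dark). Points are arrays, the horizontal bar is the mean and the vertical line the SD (n = 3), and each panel spans the same number of log2 units around its own middle. JAG1, JAG2, DLL1, NOTCH2 and HEY1 lie lower in transfected cells, NOTCH1 and LFNG higher, and NOTCH3, HES1 and HEYL overlap.

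JAG1 encodes Jagged-1, a ligand that is bound to the membrane of the sending cell. Its brightest probe set, 209099_x_at, read 6.33, 6.68 and 6.90 in transfected arrays, against 7.98, 8.20 and 8.17 in wild type arrays. Every transfected array was more than 1 log2 unit below every wild type array, and the difference was 2.79-fold (log2 change -1.48, SE 0.15, limma adjusted p = 0.000263). A second bright probe set, 216268_s_at, read 6.18, 6.47 and 6.44 in transfected arrays and 7.55, 7.89 and 7.88 in wild type arrays, a 2.66-fold fall (log2 change -1.41, SE 0.13, adjusted p = 0.000155). These probe sets gave close values, and both calls held without any 1 array.

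The remaining 4 JAG1 probe sets were dim or near the middle of the scale. On 231183_s_at JAG1 fell by 0.78 (adjusted p = 0.00871) and on 209098_s_at by 0.83 (adjusted p = 0.0396), with group means of 3.16 and 3.51 in transfected arrays and 3.95 and 4.34 in wild type arrays. All of these lie under 4.82, the median of all probe sets, where RMA compresses differences, so no fold is given. The call of 209098_s_at ended without transfected replicate 1 or 3 or without any wild type array (adjusted p from 0.0510 to 0.104). The others read a difference near 0: 229924_s_at changed by -0.02 (95% interval -0.22 to 0.18) around a level of 5.0, and 209097_s_at by 0.00 (-0.19 to 0.20) around 4.1. All JAG1 probe sets end in _x_at or _s_at, which marks probes that can match more than 1 transcript, so no JAG1 value free of that limit was had. The mean of all 6 JAG1 probe sets fell by 0.75 (adjusted p = 0.000772 over genes).

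JAG2, the other Jagged ligand, fell by nearly the same amount on both of its probe sets. On 32137_at it read 6.82, 6.26 and 6.47 in transfected arrays, against 7.41, 7.31 and 7.37 in wild type arrays (1.80-fold, log2 change -0.85, SE 0.14, limma adjusted p = 0.00314). On 209784_s_at it read 6.18, 5.66 and 5.99 in transfected arrays and 6.76, 6.94 and 6.70 in wild type arrays (log2 change -0.86, SE 0.14, adjusted p = 0.00312). The transfected arrays spread more than the wild type arrays, with SDs of 0.28 and 0.05 on 32137_at, and the groups did not overlap on either probe set.

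DLL1 encodes the Delta-like 1 ligand. Probe set 224215_s_at read 4.82, 4.95 and 5.02 in transfected arrays and 5.73, 5.99 and 5.57 in wild type arrays, a 1.78-fold fall (log2 change -0.83, SE 0.12, limma adjusted p = 0.00167). The transfected arrays sat close to the median of all probe sets, so this fold may be too small. The other probe set, 227938_s_at, was dim in both groups, at 4.21 and 4.30, and changed by -0.09 (95% interval -0.47 to 0.30). The mean of both DLL1 probe sets fell by 0.46 (adjusted p = 0.00446 over genes). Outside the 10 genes, the ligands DLL3 and DLL4 changed by 0.25 and -0.04 and did not pass (adjusted p = 0.233 and 0.900 over genes).

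**Figure D2:**
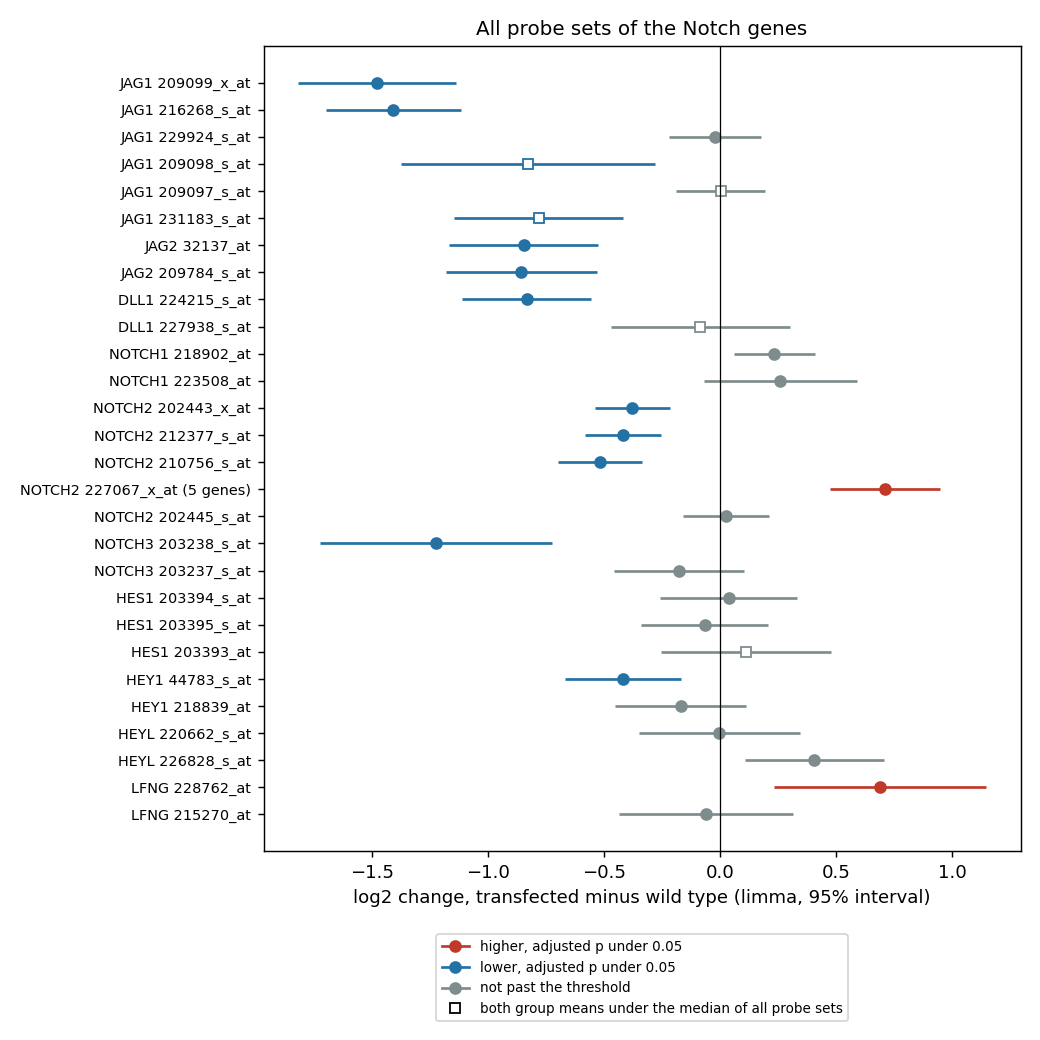
Log2 change (transfected minus wild type) of all 28 probe sets with its 95% interval from limma. Red marks a rise, blue a fall and grey a probe set not past an adjusted p of 0.05, and open squares mark probe sets whose 2 group means are both under the median of all probe sets. The ligand probe sets lie left of 0 or at it, with the lowest change at -1.48 for JAG1.

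The 3 receptors went different ways. Levels of different probe sets cannot be ranked, so receptors are compared by their changes. NOTCH2 on 202443_x_at read 11.32, 11.34 and 11.32 in transfected arrays, against 11.72, 11.69 and 11.71 in wild type arrays. The arrays of a group lay within 0.03 of each other, and the difference was 1.30-fold (log2 change -0.38, SE 0.07, limma adjusted p = 0.00554). Further probe sets gave falls of like size, 212377_s_at by 0.42 (adjusted p = 0.00363) and 210756_s_at by 0.52 (adjusted p = 0.00218). On 202445_s_at the mean was 6.68 in transfected and 6.65 in wild type arrays, a change of 0.03 (95% interval -0.16 to 0.21). All NOTCH2 probe sets end in _x_at or _s_at and so can match more than 1 transcript. The same holds for all probe sets of DLL1, NOTCH3 and HEYL.

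The probe set that names NOTCH2 with NOTCH2NLA, NOTCH2NLB, NOTCH2NLC and NOTCH2NLR went the other way. On 227067_x_at, transfected arrays read 10.19, 10.16 and 10.42, against 9.63, 9.59 and 9.42 in wild type arrays (1.64-fold, log2 change 0.71, SE 0.10, limma adjusted p = 0.00168). NOTCH2NL genes are partial, human-specific copies of NOTCH2 that encode secreted or truncated proteins that are known to enhance Notch signalling in cortical progenitors. NOTCH2NLA, named after its value was seen, has a probe set of its own, 214722_at, which read 10.46, 10.41 and 10.44 in transfected arrays, against 9.91, 10.00 and 10.08 in wild type arrays (log2 change 0.44, SE 0.08, adjusted p = 0.00487). Because the copies are nearly identical to the start of NOTCH2, how much of each reading comes from NOTCH2 and how much from a copy is uncertain.

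**Figure D3:**
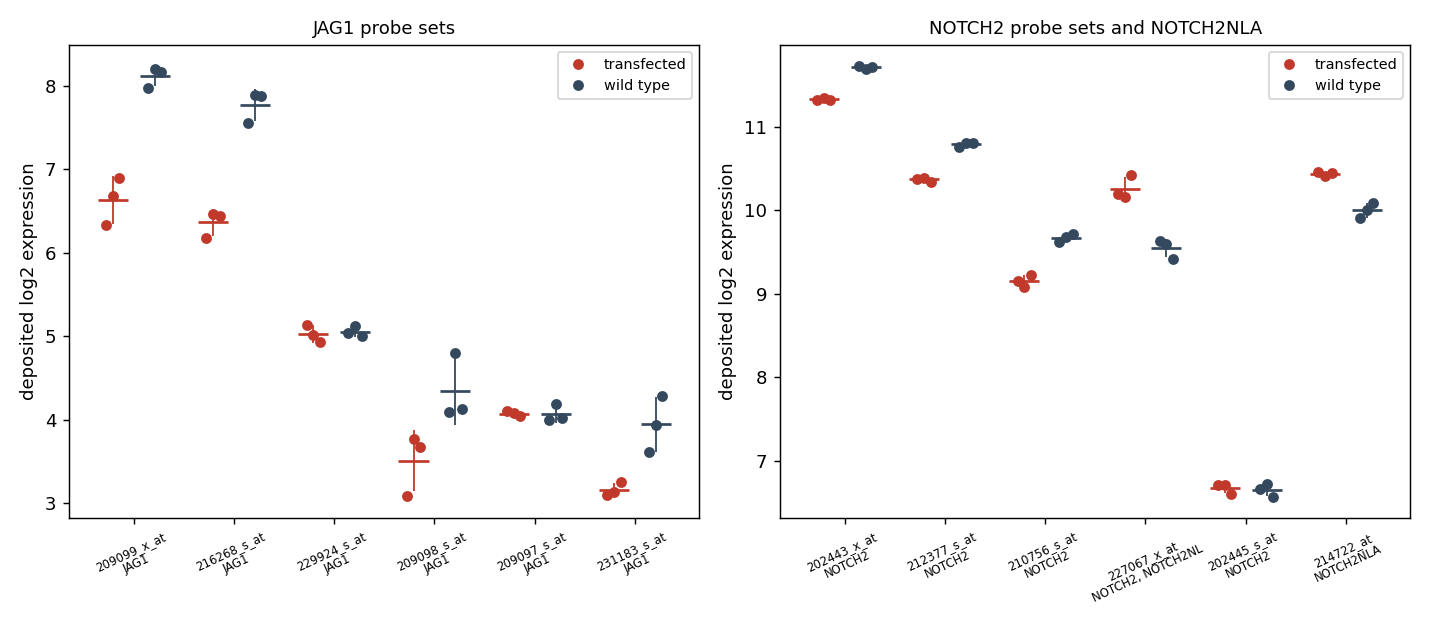
Deposited log2 expression on the 6 probe sets of JAG1 (left panel) and on the 5 probe sets that include NOTCH2 with that of NOTCH2NLA (right panel), with transfected arrays (red) left of wild type arrays (dark) for each. Points are arrays, horizontal bars means and vertical lines SDs (n = 3). The 2 brightest JAG1 probe sets fell by 1.48 and 1.41, while 3 NOTCH2 probe sets fell and those of NOTCH2 with NOTCH2NL and of NOTCH2NLA rose.

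NOTCH3 was read differently by its probe sets. On 203238_s_at it read 5.04, 4.94 and 5.05 in transfected arrays, against 5.96, 5.95 and 6.80 in wild type arrays, a 2.34-fold fall (log2 change -1.23, SE 0.22, limma adjusted p = 0.00453). Wild type replicate 3 stood above the other wild type arrays, and without it the change was -0.95 (adjusted p = 0.000988). The deposited values of that array carry more than 2 decimals for 6354 probe sets, among them 7 of HES1, NOTCH2 and NOTCH3, and the sources used here do not say why. The other NOTCH3 probe set, 203237_s_at, read 5.70, 5.74 and 5.41 in transfected arrays and 5.91, 5.62 and 5.86 in wild type arrays, where the groups overlap (log2 change -0.18, 95% interval -0.46 to 0.10, adjusted p = 0.397). It had the slightly higher mean and so stood for the gene, but without transfected replicate 1 or 2 the first probe set took its place and NOTCH3 passed over genes, with changes of -1.24 and -1.19. The mean of both probe sets gave -0.70 (adjusted p = 0.00454 over genes).

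NOTCH1 was a little higher in transfected cells. Probe set 218902_at read 8.42, 8.35 and 8.44 in transfected arrays, against 8.13, 8.15 and 8.23 in wild type arrays. The groups did not overlap, but the difference of 0.23 (SE 0.08, 1.18-fold) passed over genes (limma adjusted p = 0.0355) and missed the threshold over probe sets (adjusted p = 0.0640). The call over genes also ended without wild type replicate 1 or 2 or without any transfected array (adjusted p from 0.0616 to 0.113), when the probe sets of a gene were averaged (0.0595) and when those ending in _x_at or _s_at were dropped (0.0545). On 223508_at NOTCH1 changed by 0.26 (95% interval -0.07 to 0.59). The fourth receptor gene, NOTCH4, lay near the median of all probe sets and changed by -0.18 (adjusted p = 0.491).

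LFNG encodes lunatic fringe, a glycosyltransferase that adds sugar to Notch receptors and shifts their response from Jagged toward Delta ligands. Probe set 228762_at read 5.64, 6.38 and 6.36 in transfected arrays, against 5.39, 5.59 and 5.33 in wild type arrays. Transfected replicate 1 lay just above the highest wild type array and the other transfected arrays well above it (1.61-fold, log2 change 0.69, SE 0.20, limma adjusted p = 0.0402). This call ended when any array other than transfected replicate 1 was left out (adjusted p from 0.0703 to 0.139), and without transfected replicate 1 the change was 0.93 (adjusted p = 0.000396). The dimmer 215270_at changed by -0.06 (95% interval -0.43 to 0.31), and the mean of both LFNG probe sets rose by 0.32 (adjusted p = 0.0477 over genes).

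HES1, a repressor that is the classical direct target of Notch, did not pass on any of 3 probe sets. On 203394_s_at it read 6.11, 5.99 and 6.25 in transfected arrays, against 5.83, 6.15 and 6.26 in wild type arrays, with full overlap (log2 change 0.04, 95% interval -0.26 to 0.33, limma adjusted p = 0.904). Its other probe sets changed by -0.07 (interval -0.34 to 0.21) and 0.11 (-0.26 to 0.48). These intervals leave out a change as large as the fall of JAG1 on its brightest probe set. They reach down to -0.34, so smaller falls are not left out. On 203393_at, the probe set with 0.11, both group means lay under the median of all probe sets, where RMA compresses differences.

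The promoters of JAG1, the gene that fell most, and of HES1, a target that did not pass, are shown because they differ in the core motif of RBPJ, the protein through which Notch acts. Each window runs from 250 bases before the start site to 50 after it, in the direction of the gene, from RefSeq on GRCh38.p14, at chr20:10673950-10674249 (minus strand) for JAG1 and chr3:194135898-194136197 (plus strand) for HES1. Capitals mark the RBPJ core TGGGAA, searched on both strands.
JAG1: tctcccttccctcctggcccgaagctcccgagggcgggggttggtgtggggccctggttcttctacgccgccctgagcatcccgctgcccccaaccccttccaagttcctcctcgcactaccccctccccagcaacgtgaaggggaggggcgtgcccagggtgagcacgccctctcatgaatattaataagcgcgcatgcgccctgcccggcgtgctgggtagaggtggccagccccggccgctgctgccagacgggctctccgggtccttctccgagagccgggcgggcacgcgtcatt
HES1: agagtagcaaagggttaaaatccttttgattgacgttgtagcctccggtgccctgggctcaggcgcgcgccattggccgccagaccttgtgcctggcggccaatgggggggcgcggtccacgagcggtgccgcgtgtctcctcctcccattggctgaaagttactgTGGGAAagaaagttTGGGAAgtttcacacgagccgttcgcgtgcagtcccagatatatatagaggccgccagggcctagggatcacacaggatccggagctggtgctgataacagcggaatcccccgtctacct
HES1 holds 2 copies on the strand of the gene, starting 84 and 70 bases before the start site, and JAG1 holds none. Of the 8 genes of the set with a window, HES1, HEYL and LFNG hold the core, which 24.0% of all 35116 promoter windows do. The short nuclear factor I motif TTGGC was also searched on both strands and was found in 45.6% of all windows. It occurs 3 times in the window of HES1 and also in windows of JAG2, NOTCH1, NOTCH2, NOTCH3 and LFNG. Those of JAG1 and HEYL do not hold it. A match describes letters only, and no binding was measured.

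HEY1 and HEYL encode further repressors of this family. HEY1 fell slightly on 44783_s_at, with 5.69, 5.86 and 5.96 in transfected arrays and 6.29, 6.10 and 6.38 in wild type arrays (1.34-fold, log2 change -0.42, SE 0.11, limma adjusted p = 0.0256). That call ended without transfected replicate 1 or 2 or wild type replicate 1 or 3 (adjusted p from 0.0550 to 0.0942), and 218839_at, the only HEY1 probe set left when names ending in _x_at or _s_at are dropped, changed by -0.17 (95% interval -0.45 to 0.11). HEYL overlapped fully on 220662_s_at, at 5.96, 5.69 and 5.68 in transfected arrays and 6.05, 5.79 and 5.50 in wild type arrays (log2 change 0.00, interval -0.35 to 0.34). On the dimmer 226828_s_at, HEYL read 4.91, 4.92 and 5.04 in transfected arrays, against 4.73, 4.26 and 4.66 in wild type arrays (log2 change 0.41, adjusted p = 0.0615, and 0.0377 with the replicate number as a block).

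Other genes of the pathway were read from a list of 55, of which 51 were measured and 4 were not analysed here. Of the 51, 10 rose, 8 fell and 33 did not pass, or 35.3% past the threshold, close to the 31.9% of all genes. Their median log2 change was 0.02. The list was then split by textbook role, after values were known, so the counts by role are descriptions. None of 5 other ligands and receptors passed. Of 4 receptor glycosylation genes 1 rose, where 15% of all genes did. This was POFUT1, by 0.26 (limma adjusted p = 0.0353 over genes), named after its value was seen. Neither of its 2 probe sets passed over probe sets, and averaging them gave 0.16 (adjusted p = 0.151).

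Genes for cutting the receptor were mostly higher. Of 7 measured, 6 rose, where 15% of all genes did, and PSENEN did not pass. ADAM10, the main sheddase of Notch, read 10.16, 10.26 and 10.11 in transfected arrays, against 8.52, 8.77 and 8.56 in wild type arrays (2.95-fold, log2 change 1.56, SE 0.09, limma adjusted p = 2.37e-05 over genes), and all 3 of its probe sets rose. ADAM17, a related sheddase, read 9.52, 9.48 and 9.58 in transfected arrays, against 8.40, 8.69 and 8.80 in wild type arrays (1.86-fold, log2 change 0.90, adjusted p = 0.000622), also with 3 of 3 probe sets higher. PSEN2, a catalytic subunit of gamma-secretase, rose by 1.09 from a wild type mean of 6.31 (adjusted p = 4.26e-05). Of its 3 probe sets 2 rose, while 204261_s_at changed by 0.57 with overlapping groups (limma adjusted p = 0.0789 over probe sets). All PSEN2 probe sets end in _s_at.

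Smaller rises among the gamma-secretase subunits, named after their values were seen, depended more on the setting. NCSTN rose by 0.37 (limma adjusted p = 0.00639), and averaging its probe sets gave 0.21 (adjusted p = 0.0712). APH1B rose by 0.44 (adjusted p = 0.0194), a call that ended without wild type replicate 1 or 2 (0.0657 and 0.0677). Averaging both APH1B probe sets gave 0.87 (adjusted p = 0.00836), and its plain _at probe set alone gave 1.30, which also passed. APH1A rose by 0.21 (adjusted p = 0.0400), but the call ended with median centring (0.0520), with the replicate block (0.0570), without any 1 array (0.0626 to 0.132) and when its probe sets were averaged (0.339), and on the probe sets that do not end in _x_at or _s_at the value was -0.09.

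**Figure D4:**
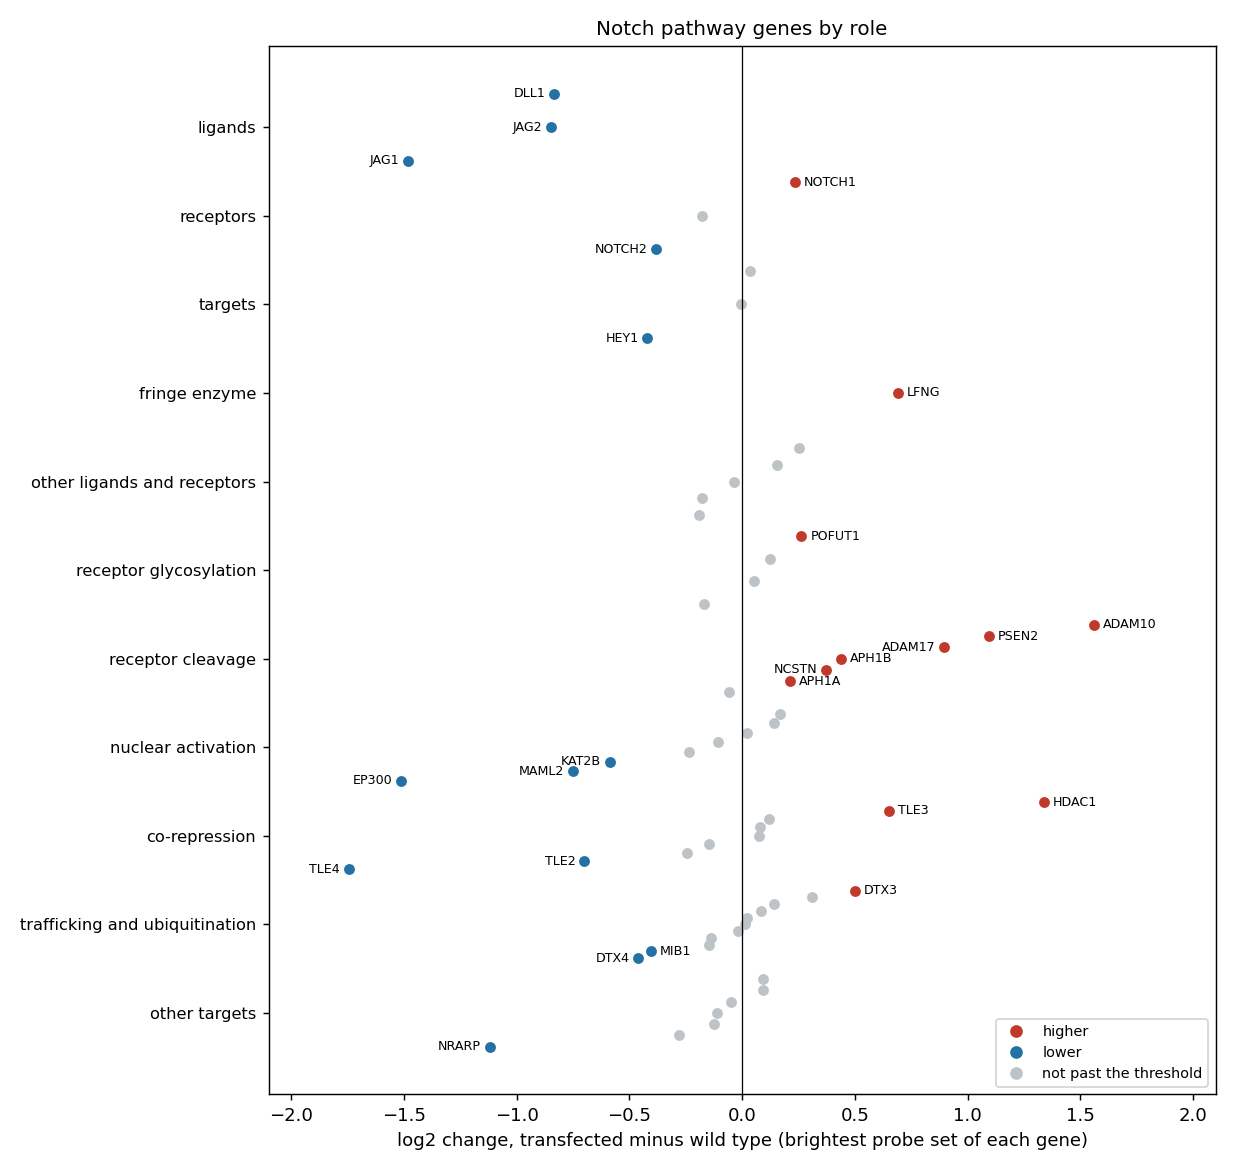
Log2 change (transfected minus wild type) of the 10 Notch genes and 51 further pathway genes on the brightest probe set of each, in rows by role. Red points rose, blue points fell and grey points did not pass an adjusted p of 0.05. The 3 ligands lie between -1.48 and -0.83, and 6 of 7 receptor cleavage genes lie above 0 past the threshold.

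For the nuclear step, none of 8 activation genes rose on its brightest probe set, where 15% of all genes did. Of 3 probe sets of the Mastermind gene MAML3 1 rose, by 1.25, and averaging them gave 0.39 (adjusted p = 0.00297), while 1 of 4 of the acetyltransferase gene CREBBP rose, by 0.47; both were named after their values were seen. RBPJ read 10.22, 10.28 and 10.26 in transfected arrays, against 10.08, 10.10 and 10.16 in wild type arrays, and did not pass (log2 change 0.14, 95% interval -0.01 to 0.29, limma adjusted p = 0.160). Of these 8 genes 3 fell, where 16.9% of all genes did. The acetyltransferase EP300, a coactivator of the Notch complex, read 4.65, 5.63 and 5.99 in transfected arrays, against 6.73, 7.01 and 7.07 in wild type arrays (2.85-fold, log2 change -1.51, SE 0.31, adjusted p = 0.00787). The transfected arrays spread widely, yet the groups did not overlap and both EP300 probe sets fell. Transfected replicate 1, at 4.65, was the lowest array, and without it the change was -1.13 (limma adjusted p = 0.000761 over genes). The other EP300 probe set, 213579_s_at, fell by 1.11. MAML2, a Mastermind coactivator, fell by 0.75 (adjusted p = 0.00193) and KAT2B, an acetyltransferase, by 0.58 (adjusted p = 0.00839).

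Co-repressor genes went both ways. Of 12 listed, 9 were measured, with 2 higher and 2 lower, where 15% of all genes were higher and 16.9% lower. TLE4, a Groucho co-repressor that partners HES proteins, read 7.38, 7.46 and 7.17 in transfected arrays, against 8.94, 9.0 and 9.31 in wild type arrays (3.35-fold, log2 change -1.75, SE 0.12, limma adjusted p = 4.61e-05). All 5 TLE4 probe sets fell. Its relative TLE2 fell by 0.70 (adjusted p = 0.000257), while TLE3 rose by 0.65 (adjusted p = 0.0181), a call that ended without wild type replicate 2 or 3 (0.0676 and 0.0745). HDAC1, a histone deacetylase with many roles outside Notch, rose by 1.34 to a mean of 11.72 in transfected arrays, against 10.38 in wild type arrays (adjusted p = 3.06e-05).

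Of 7 further targets measured NRARP fell, where 16.9% of all genes did, and the others did not pass. NRARP encodes a feedback inhibitor that Notch induces and that binds the Notch complex. NRARP read 6.13, 6.0 and 5.70 in transfected arrays, against 6.95, 7.07 and 7.17 in wild type arrays, a 2.17-fold fall (log2 change -1.12, SE 0.12, limma adjusted p = 0.000355) on its only probe set. The fall was well outside the spread of both groups and held without any 1 array. Among 11 trafficking and ubiquitination genes 1 rose and 2 fell, where 15% of all genes rose and 16.9% fell. The Deltex gene DTX3 rose by 0.50 (adjusted p = 0.00263, against 0.0533 when its 5 probe sets were averaged). The falls, named after their values were seen, were in DTX4 and MIB1. They changed by -0.46 and -0.40 (limma adjusted p = 0.0253 and 0.00594 over genes). DTX4 has 1 probe set, and 3 of 4 probe sets of MIB1 fell. Of 5 MIB2 probe sets 1 fell as well.

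Genes next to these on their chromosomes were also read. For JAG1, the 10 nearest measured genes (5 on each side) had a median log2 change of -0.06, beside the JAG1 change of -1.48, and 2 of them fell and 0 rose, where 16.9% of all genes fell and 15% rose. Next to JAG2 the median was 0.05, with 2 of 10 lower, and next to DLL1, where 9 were measured, it was -0.09, with 3 lower. Next to NOTCH1 3 of 10 fell (median -0.13), next to NOTCH2 3 of 10 rose (0.02), next to NOTCH3 1 rose and 1 fell (-0.01), and next to HES1 none of 10 passed (-0.04). Next to HEY1 3 of 10 fell (-0.19), next to HEYL 2 fell and 1 rose (0.05), and next to LFNG 4 rose and 1 fell (0.04). These are small counts and were not tested.

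By Euclidean distance of mean-centred log2 values over the 6 arrays, the genes nearest to the profile of JAG1 were SPAG16, at 0.08, BMPR1B, at 0.14, and NUP62CL, at 0.15. BMPR1B encodes a receptor for bone morphogenetic proteins and SPAG16 a protein of the ciliary axoneme. SPAG16 read 5.56, 5.88 and 6.04 in transfected arrays, against 7.22, 7.39 and 7.34 in wild type arrays, with transfected replicate 1 the lowest array, as for JAG1. They were picked for this likeness, and their changes of -1.49, -1.42 and -1.57 are descriptions. Not all of their probe sets fell: 1 of 3 did for SPAG16, 2 of 3 for BMPR1B and 1 of 2 for NUP62CL. Averaging the probe sets gave -0.41, -1.01 and -0.88. Without names ending in _x_at or _s_at, NUP62CL changed by -0.20 (limma adjusted p = 0.346), while SPAG16 and BMPR1B kept -1.49 and -1.42.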

How the data were processed

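The values are log2 expression levels that the authors deposited in a table of 6 arrays. Per the submitters' processing notes they come from RMA, a method that subtracts background, brings arrays to the same distribution and combines the probes into 1 value per probe set. Its version was not given in the sources used here. Values ranged from 2.35 to 14.62, with array medians from 4.80 to 4.86. Arrays have no read depth, so their number limits the precision.

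From the deposited log2 values, 62 control probe sets were left out and the other 54613 were compared in limma 3.58.1 (R 4.3.3; moderated linear model, two-sided, Benjamini-Hochberg adjustment over all of them, threshold 0.05). The same fit over 19775 genes, each read by the brightest probe set naming only that gene, gave the counts over gene lists. Both fits were also run on simulated data with known changes, as a check of the code. The simulated arrays had independent noise and far fewer changed probe sets or genes than passed here. Error rates in these data were therefore not measured. Names came from the platform annotation, updated by gene identifier for 41037 of 41091 probe sets with 1 gene. The groups share replicate numbers, so the correlation of deviations from the group means was computed for same-numbered arrays. It was 0.398, 0.238 and 0.140 for numbers 1, 2 and 3. Pairs of different numbers gave -0.277 to 0.142, of which wild type replicate 2 with transfected replicate 3 was highest. A fit with the number as a block was an alternative, beside 3 normalizations, array weights, another variance prior, a level filter, other probe set choices and leaving out each array. The members and lists were chosen with earlier results of these data known. By the rule for names, the text gives all members, NFIC, RBPJ, NOTCH4, DLL3 and DLL4. It also gives the 12 other pathway genes with the largest changes past the threshold and without overlap. The 3 genes nearest to the member that changed most are given too. Outside that rule the text names NOTCH2NLA, PSENEN, NCSTN, APH1A, APH1B, MAML3, CREBBP, POFUT1, DTX4, MIB1 and MIB2, besides the cell type markers.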

Additional observations from a re-analysis of the deposited data

How the results depend on the processing

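The falls of JAG1, JAG2, DLL1 and NOTCH2 on their brightest probe sets and of NOTCH3 on 203238_s_at passed under every alternative that could give a value. Counts of members that rose were less stable. Of the 28 probe sets, 1 or 2 rose when any 1 array was left out (2 with all arrays), and of the 10 genes 0 or 1 did (2 with all arrays). With the mean of probe sets 1 gene rose. When sets with _x_at or _s_at names were dropped, 1 rose and 1 fell of the 5 genes that could then be measured: JAG2 and LFNG kept their calls, NOTCH1 (adjusted p = 0.0545) and HEY1 (-0.17, adjusted p = 0.405) lost theirs, and HES1 did not pass in either. With the replicate number as a block, 12 probe sets fell and 3 rose (2 without it), and 5 genes fell and 2 rose, as without it. Of the 51 other pathway genes, 11 fell and 9 rose with the block, against 8 and 10 without. The block ended the call of APH1A and gave HEYL 226828_s_at one, and it changed no other call among the members' probe sets and genes and the pathway genes named in the text for which it was computed.

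Apart from APH1A, whose call was lost with its sign, the values that changed sign had not passed. Cyclic loess turned JAG1 209097_s_at to -0.0003, quantile normalization turned HEYL to 0.024 and averaging its probe sets gave 0.20, and APH1A read -0.093 without the ambiguous probe sets. Leaving out 1 array gave ranges across 0 of -0.078 to 0.027 for JAG1 229924_s_at, -0.032 to 0.063 for 209097_s_at, -0.24 to 0.10 for DLL1 227938_s_at, -0.013 to 0.060 for NOTCH2 202445_s_at, -0.088 to 0.13 for HES1 203394_s_at, -0.16 to 0.04 for 203395_s_at, -0.0030 to 0.27 for 203393_at, -0.14 to 0.13 for HEYL 220662_s_at, -0.22 to 0.11 for LFNG 215270_at, -0.30 to 0.01 for NOTCH4 and -0.19 to 0.077 for DLL4. The cause was not tested. Of 785 values recomputed for the probe sets and genes named, 700 kept direction and side of the threshold, 44 lost a call, 10 gained one and 31 changed sign. Array data near the dim end limit what the dim JAG1, DLL1 and HEYL probe sets can show.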
